A study of Arabidopsis thaliana with 56 samples.

Results

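In wild-type endosperm of Arabidopsis thaliana, 15 genes lay at or under 2 CPM at 6 days after pollination (DAP) and at or above 20 CPM at 7 DAP, both as means over libraries. CPM is a gene's read count scaled to 1000000 counted reads of its library, and it is not divided by gene length, so levels are compared between groups and not between genes. The 15 genes are those of 32399 nuclear gene identifiers (AT1G to AT5G) that met both limits, after storage protein and oleosin genes and the identifiers starting with AT1G620 and AT1G622, all named in the selection rule, had been left out. Before that step 20 genes met the limits. The WT values of 6 and 7 DAP thus decided which genes were taken: the genes were chosen by them, so they are given only as a description. What could be tested is how the same genes moved between days in crwn1/2, whose libraries the limits did not use. WT libraries enter that test through its filter on low counts, its scaling, its adjustment over all features and its estimate of the spread. All 15 genes have a RefSeq entry as protein-coding genes, and 6 of them have a symbol of their own.

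The tissue was endosperm, taken as nuclei of 6C DNA content sorted from seeds, with seeds of 1 to 5 siliques per sample, per the labels. The groups were crwn1/2 at 6 DAP with 3 mRNA libraries, crwn1/2 at 7 DAP with 5, crwn1/2 at 8 DAP with 4, WT at 7 DAP with 4 and WT at 6 DAP with 4; no WT library of 8 DAP was analysed. The label crwn1/2 stands for plants that lack CRWN1 and CRWN2, proteins of the nuclear lamina, and the labels give neither the alleles nor the strain background. Neither do they say that the libraries of a group came from separate plants, so a p-value measures the spread between these samples, which may be technical.

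The seed of Arabidopsis passes from growth into maturation while the endosperm becomes cellular, and the genes of storage and drying are turned on under a network of transcription factors that includes FUS3, ABI3 and LEC1-type subunits. Maturation genes include those for seed storage proteins, for oil body proteins, for tonoplast aquaporins of the protein storage vacuole, and for late embryogenesis abundant (LEA) proteins, which are hydrophilic proteins known from drying seeds. Chromatin marked by H3K27me3, the mark set by Polycomb repressive complexes, is known to keep many such genes silent outside the seed.

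The mRNA libraries held 6986418 to 14359413 counted reads and 34372 to 49133 features with a count. CRWN1 was counted at 44.9 to 115 CPM in crwn1/2 libraries and at 72.7 to 149.6 CPM in WT libraries, and CRWN2 at 10.8 to 38.7 CPM in crwn1/2 and at 32.9 to 89.0 CPM in WT. Since the labels do not say which part of either gene is lost, these counts do not check the genotype labels. The 9 endosperm development genes on a list used here, among them EPR1, ZOU and AGL62, each had a count in every group and summed to 541 to 859.8 CPM in crwn1/2 at 6 DAP, 928 to 1622 at 7 DAP and 1562 to 2368 at 8 DAP, and to 1477 to 2315 CPM in WT at 7 DAP and 977 to 1147 at 6 DAP. Means in crwn1/2 at 6, 7 and 8 DAP were 53.4, 513 and 1111 CPM for EPR1. For ZOU they were 88.4, 86.3 and 93.8 CPM and for AGL62 8.35, 7.86 and 11.1 CPM. The sum thus does not show a shared rise. A library of each genotype stood apart for the 15 genes: crwn1/2 at 7 DAP replicate 1, the lowest of its group for 14 of them, and WT at 7 DAP replicate 4, the lowest of its group for 12. Summed levels, shares of the WT level, counts of calls and counts of genes without overlap are also given without them. Both were picked on the levels of the 15 genes themselves. Changes seen without them thus follow in part from that choice and are a description only.

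In crwn1/2 the summed level of the 15 genes was close to that of WT at 6 DAP, well under that of WT at 7 DAP, and within the range of the 4 WT libraries of 7 DAP at 8 DAP. Summed over the 15 genes, the level was 14.1, 10.3 and 13.97 CPM in the crwn1/2 libraries of 6 DAP, 21.2, 191, 203, 222 and 144 CPM in those of 7 DAP and 1008, 868, 639.6 and 847 CPM in those of 8 DAP. The sum was 1043, 797, 797 and 337 CPM in the WT libraries of 7 DAP and 12.4, 18.4, 13.8 and 17.6 CPM in those of 6 DAP. The crwn1/2 libraries of 7 DAP lay below each WT library of the same day, and those of 8 DAP lay within the range of the WT libraries of 7 DAP. As a share of the WT 7 DAP sum of means, crwn1/2 had 1.72% at 6 DAP, 21.0% at 7 DAP and 113% at 8 DAP. Without WT at 7 DAP replicate 4 these shares were 1.46%, 17.8% and 95.7%, so crwn1/2 at 8 DAP was then under the WT mean of 7 DAP. Without crwn1/2 at 7 DAP replicate 1 as well, the share at 7 DAP was 21.6%. Without the library that stands apart in each genotype, the mean sum was 189.9 ± 32.99 CPM in crwn1/2 at 7 DAP (SD, n = 4), 841 ± 152 CPM in crwn1/2 at 8 DAP (SD, n = 4) and 879 ± 142 CPM in WT at 7 DAP (SD, n = 3). The limit of 20 CPM was reached by the mean of 0 genes in crwn1/2 at 6 DAP, 2 at 7 DAP (AT1G03103 and CWLP) and 10 at 8 DAP; without crwn1/2 at 7 DAP replicate 4 the count at 7 DAP was 1. Conversely, means at or under 2 CPM numbered 15, 2 and 0 on these days. In samples of this kind, fewer nuclei that express a gene and less RNA per nucleus cannot be told apart.

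**Figure D1:**
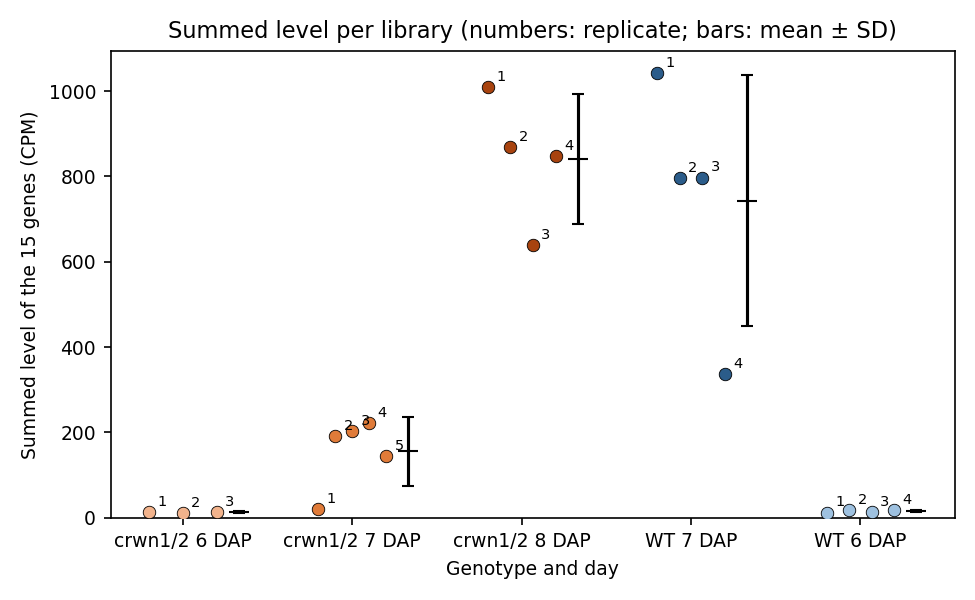
Summed level of the 15 genes in CPM (vertical axis) for each library (points, numbered by replicate) in the groups along the horizontal axis, with the mean and SD of each group beside the points. The crwn1/2 sums lie at 10.3 to 14.1 CPM at 6 DAP, 21.2 to 222 CPM at 7 DAP and 639.6 to 1008 CPM at 8 DAP, against 337 to 1043 CPM in WT at 7 DAP.

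Markers of the seed coat, a maternal tissue around the endosperm, moved with the days as well. All 13 listed seed coat markers had counts in every group, and they summed to 2614 to 3533 CPM in crwn1/2 at 6 DAP, 1283 to 2057 at 7 DAP and 844 to 1362 at 8 DAP, and to 1173 to 1676 CPM in WT at 7 DAP and 1738 to 2089.9 at 6 DAP. In crwn1/2, 6 of the 13 fell at 7 DAP against 6 DAP, 2 at 8 DAP against 7 DAP and 9 at 8 DAP against 6 DAP, where 4.64%, 1.73% and 12.8% of all features tested fell, while 0 rose (edgeR's quasi-likelihood test with Benjamini-Hochberg adjustment). DESeq2 called 0 of them higher, and at an unadjusted p under 0.05 the counts of higher ones were 1, 0 and 0. The 16 embryo markers had counts in every group too and summed to 273 to 371 CPM in crwn1/2 at 6 DAP, 398 to 457 at 7 DAP and 431 to 475 at 8 DAP, and to 399 to 429.8 CPM in WT at 7 DAP and 347 to 396 at 6 DAP. Of 15 of these that could be tested, PDF2 and ZLL, which also act outside the embryo, rose at 7 DAP against 6 DAP and at 8 DAP against 6 DAP, and CLV3 fell at 8 DAP against 7 DAP. The part of either tissue in the levels of the 15 genes was not tested.

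Between 6 and 7 DAP in crwn1/2, 12 of the 15 genes rose and 0 fell, where 6.57% of the 24696 features tested rose and 4.64% fell (edgeR's quasi-likelihood test, adjusted p under 0.05 over all features). The 12 are AT1G03103, AT2G38380, CWLP, AT2G18360, TIP3;1, AT1G12845, AT5G44310, LEA, ATPXG2, AT2G21820, UGT74F2 and PAP21. No gene of the 15 was lower at an unadjusted p under 0.05 either, nor with DESeq2, and 13 were higher at an unadjusted p under 0.05. The median log2 change of the 15 genes was 2.87, beside -0.01 over all features tested. In 5 of them, AT1G03103, AT2G38380, CWLP, AT1G12845 and AT3G20460, each library of 7 DAP lay above each of 6 DAP, as was so for 7.42% of all features. Without crwn1/2 at 7 DAP replicate 1 it was so for 12 genes and for 11.7% of all features. That library was picked because these genes were low in it, so the larger count carries no weight. Without crwn1/2 at 6 DAP replicate 2 the count of genes that rose went from 12 to 8, and the calls lost were those of LEA, AT2G21820, UGT74F2 and PAP21. The share of all features that rose in this setting is not given here. A loss in these genes thus cannot be told apart from a general loss of calls. With crwn1/2 libraries alone in the fit 11 rose, where 6.77% of all features rose, and the call of PAP21 was lost (edgeR adjusted p = 0.0583).

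Between 7 and 8 DAP in crwn1/2, 13 of the 15 rose and 0 fell, where 2.22% of all features rose and 1.73% fell (edgeR). Without crwn1/2 at 7 DAP replicate 1, 12 of the 15 rose, where 1.28% of all features rose and 0.57% fell. AT2G21820 was the call lost (edgeR adjusted p = 0.0595). With the same library left out, 12 rose at 7 against 6 DAP and 15 at 8 against 6 DAP. Of all features 7.71% and 12.6% then rose in these 2 contrasts. Leaving that library out made the first step larger and the second smaller in each of the 15 genes, with medians of 3.14 and 1.92. With crwn1/2 libraries alone in the fit 11 rose, where 2.41% of all features rose, and the calls of AT5G44310 and AT2G21820 were lost (edgeR adjusted p = 0.0698 and 0.0719). The 2 not past the threshold were AT2G18360 and AT2G14095; 15 were higher and 0 lower at an unadjusted p under 0.05, and DESeq2 called 0 lower. Here each library of 8 DAP lay above each of 7 DAP for all 15 genes, as was so for 4.47% of all features. The median log2 change was 2.06, beside -0.01 over all features. With the share of reads outside annotated features as a covariate, 7 of the 15 were called, and 0.474% of all features. That share did not overlap between crwn1/2 libraries of 7 and 8 DAP, so it cannot be told apart from the day here. From 6 to 8 DAP all 15 rose, where 12.1% of all features rose and 12.8% fell, with a median log2 change of 5.88 beside -0.03 over all features; 0 were lower by edgeR, by DESeq2 or at an unadjusted p under 0.05. Over these 2 days, too, the libraries of 8 DAP lay above those of 6 DAP for all 15 genes, as for 14.8% of all features. The 3 contrasts share libraries, so their calls are not independent of each other. The fitted log2 changes of each gene differed in timing, which the median changes do not show and which was not tested between genes.

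**Figure D2:**
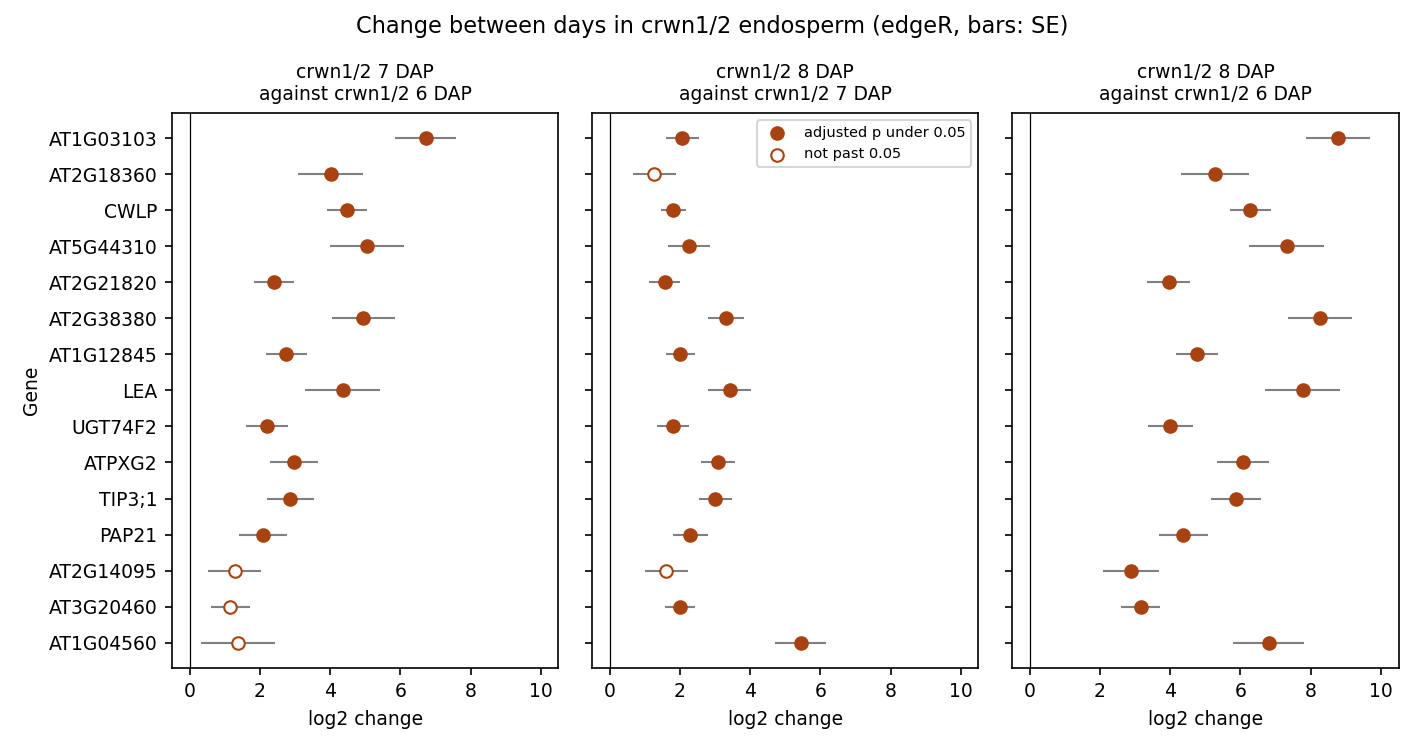
Log2 change with its SE (horizontal axis) of each of the 15 genes (vertical axis, sorted by the part of the change that had taken place by 7 DAP) in the 3 contrasts within crwn1/2; filled points have an edgeR adjusted p under 0.05. The genes at the top had the largest part of their change by 7 DAP (AT1G03103 changed by 6.72 in the first step and 2.06 in the second), while AT1G04560 at the bottom had a change of 1.38 in that step and of 5.43 in the next.

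Among the 15, 4 genes encode, or are listed here with, proteins of the storage vacuole, of drying seeds or of lipid droplets. All 4 rose in both steps, where 6.57% and 2.22% of all features rose in the first and the second. So did CWLP, UGT74F2, PAP21, AT1G03103, AT2G38380, AT1G12845 and AT2G21820, so this does not set the 4 apart. TIP3;1 encodes alpha tonoplast intrinsic protein, an aquaporin of the protein storage vacuole membrane. It had 1.41, 1.04 and 1.49 CPM in the 3 crwn1/2 libraries of 6 DAP, 0.977, 7.94, 19.1, 10.05 and 8.81 CPM in the 5 of 7 DAP and 91.5, 77.8, 67.7 and 67.1 CPM in the 4 of 8 DAP. In WT it had 59.4, 31.6, 67.7 and 7.16 CPM at 7 DAP and 0.937, 1.44, 2.17 and 1.69 CPM at 6 DAP. The day 8 libraries lay close together and above each library of day 7, whereas WT at 7 DAP spread widely, with replicate 4 lowest. The log2 change of TIP3;1 was 2.87 (SE 0.67, edgeR adjusted p = 0.00632) at 7 against 6 DAP and 3.01 (SE 0.48, edgeR adjusted p = 0.00123) at 8 against 7 DAP. Means were 76.03 ± 11.4 CPM in crwn1/2 at 8 DAP and 41.5 ± 27.6 CPM in WT at 7 DAP (SD, n = 4 each), and the libraries of these groups overlapped. LEA (AT2G21490), annotated as a dehydrin, is a hydrophilic protein of the group that accumulates in drying seeds. LEA had 0.707, 0 and 0 CPM in the 3 crwn1/2 libraries of 6 DAP, 0.326, 3.13, 7.82, 11.6 and 0.688 CPM in the 5 of 7 DAP and 52.2, 67.8, 36.7 and 50.7 CPM in the 4 of 8 DAP. WT levels of LEA were 38.7, 22.4, 36.5 and 4.58 CPM at 7 DAP and 0.234, 0.120, 0.256 and 0.112 CPM at 6 DAP. The 7 DAP libraries of crwn1/2 were split, with replicates 1 and 5 at the level of 6 DAP and replicates 2, 3 and 4 above it. LEA had a fitted log2 shift of 4.35 (SE 1.07, edgeR adjusted p = 0.00884) at 7 against 6 DAP and of 3.42 (SE 0.61, edgeR adjusted p = 0.00260) at 8 against 7 DAP. At 6 DAP it rests on 7 reads, all in replicate 1: without that library the 6 DAP group holds 0 reads. Set against a floor of 3 reads over that group the pooled level of 7 DAP was at least 35.9-fold higher, counting error only. With all libraries the fitted fold was 20.5. The bound leaves out the spread between libraries and the only 6 DAP library with reads. Without replicates 2 or 3 the first change was 3.83 and 3.74, with edgeR adjusted p = 0.0596 and 0.0543. Leaving out crwn1/2 at 7 DAP replicate 4 gave 3.71 and 4.06 for the first and the second step.

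ATPXG2, a peroxygenase of the caleosin family, whose members sit on lipid droplets, was the gene of the 15 with crwn1/2 at 8 DAP furthest over WT at 7 DAP. ATPXG2 had 0.808, 0.104 and 1.96 CPM in the 3 crwn1/2 libraries of 6 DAP, 0.868, 7.10, 10.9, 13.3 and 4.96 CPM in the 5 of 7 DAP and 70.6, 62.5, 62.8 and 60.6 CPM in the 4 of 8 DAP. Its WT levels were 32.7, 21.3, 39.2 and 6.44 CPM at 7 DAP and 0.585, 0.120, 0.128 and 0.562 CPM at 6 DAP. Each crwn1/2 library of 8 DAP exceeded each WT library of 7 DAP, which held for 1 of the 15 genes and for 10% of all features (9.62% lay below in the same way, and 0 of the 15 genes), and the 8 DAP libraries differed little among themselves. Its log2 change was 2.97 (SE 0.69, edgeR adjusted p = 0.00587) at 7 against 6 DAP, 4.02 without crwn1/2 at 6 DAP replicate 3, and 3.09 (SE 0.49, edgeR adjusted p = 0.00123) at 8 against 7 DAP. AT5G44310 stands on the list of LEA genes used here. AT5G44310 had 0.202, 0.104 and 0.372 CPM in the 3 crwn1/2 libraries of 6 DAP, 0, 9.82, 10.6, 16.4 and 1.51 CPM in the 5 of 7 DAP and 27.8, 69.9, 22.996 and 27.6 CPM in the 4 of 8 DAP. In WT there were 30.2, 22.1, 34.8 and 22.6 CPM at 7 DAP and 0.117, 1.32, 0.767 and 0.225 CPM at 6 DAP. At 7 DAP replicate 1 of crwn1/2 was at 0 and replicate 5 near the WT level of 6 DAP, and at 8 DAP replicate 2 stood above the other 3, which lay within the WT range of 7 DAP. AT5G44310 had a fitted log2 shift of 5.05 (SE 1.05, edgeR adjusted p = 0.00234) at 7 against 6 DAP and of 2.26 (SE 0.60, edgeR adjusted p = 0.0317) at 8 against 7 DAP. The second call was lost without crwn1/2 at 7 DAP replicate 2 or 5 and without crwn1/2 at 8 DAP replicate 1, 2 or 4, with edgeR adjusted p of 0.0501 to 0.117.

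The other 3 genes with symbols encode a wall protein and 2 enzymes. CWLP is annotated as a cell wall-plasma membrane linker protein. CWLP had 1.72, 0.833 and 0.466 CPM in the 3 crwn1/2 libraries of 6 DAP, 8.79, 19.1, 22.2, 43.1 and 15.4 CPM in the 5 of 7 DAP and 67.4, 112, 61.5 and 62.9 CPM in the 4 of 8 DAP. Levels in WT were 35.3, 32.4, 82.1 and 51.8 CPM at 7 DAP and 0, 0.841, 0.895 and 0.899 CPM at 6 DAP. At 7 DAP each crwn1/2 library was above each of 6 DAP, including replicate 1, and at 8 DAP replicate 2 was the highest by a wide gap. CWLP had a fitted log2 shift of 4.48 (SE 0.57, edgeR adjusted p = 1.88e-05) at 7 against 6 DAP, of 5.10 without crwn1/2 at 6 DAP replicate 1, and of 1.81 (SE 0.36, edgeR adjusted p = 0.00594) at 8 against 7 DAP. With 43.1% of the WT 7 DAP mean at 7 DAP, it was the gene of the 15 nearest to WT on that day. UGT74F2 is a glucosyltransferase that acts on salicylic acid. UGT74F2 had 2.93, 1.56 and 0.931 CPM in the 3 crwn1/2 libraries of 6 DAP, 0.760, 7.17, 12.9, 13.4 and 6.06 CPM in the 5 of 7 DAP and 29.2, 36.7, 20.97 and 25.8 CPM in the 4 of 8 DAP. WT levels of UGT74F2 were 23.6, 16.3, 22.3 and 25.9 CPM at 7 DAP and 1.05, 2.88, 3.33 and 0.562 CPM at 6 DAP. WT at 7 DAP replicate 4, low for most of the 15 genes, was the highest of its group here, and the WT libraries of that day lay close together. UGT74F2 had a fitted log2 shift of 2.20 (SE 0.60, edgeR adjusted p = 0.0168) at 7 against 6 DAP and of 1.80 (SE 0.46, edgeR adjusted p = 0.0272) at 8 against 7 DAP. The first call was lost without crwn1/2 at 6 DAP replicate 2 or 3 (edgeR adjusted p = 0.0821 and 0.0949). The second was lost without crwn1/2 at 7 DAP replicate 2 or 5 or crwn1/2 at 8 DAP replicate 1, 2 or 4 (edgeR adjusted p of 0.0553 to 0.0629). PAP21 is a purple acid phosphatase, an enzyme family that releases phosphate. PAP21 had 0.101, 0.312 and 1.02 CPM in the 3 crwn1/2 libraries of 6 DAP, 0.326, 2.30, 2.45, 2.74 and 2.34 CPM in the 5 of 7 DAP and 10.9, 7.63, 6.82 and 14.999 CPM in the 4 of 8 DAP. In the WT libraries PAP21 had 38.7, 21.6, 14.2 and 11.6 CPM at 7 DAP and 1.40, 0.961, 0.128 and 0.787 CPM at 6 DAP. Replicate 1 of 7 DAP was within the range of 6 DAP while the other 4 were close to each other, and the 8 DAP libraries overlapped the low end of WT at 7 DAP. PAP21 had a fitted log2 shift of 2.08 (SE 0.68, edgeR adjusted p = 0.0487) at 7 against 6 DAP and of 2.29 (SE 0.50, edgeR adjusted p = 0.0102) at 8 against 7 DAP. The first of these calls was the least firm of the 12: leaving out any of 14 libraries ended it, namely crwn1/2 at 6 DAP replicate 1 or 2, crwn1/2 at 7 DAP replicates 2 to 5, any of crwn1/2 at 8 DAP, WT at 7 DAP replicate 2 or 3 and WT at 6 DAP replicate 2 or 4. Over these the edgeR adjusted p went up to 0.181, without crwn1/2 at 6 DAP replicate 2, and without replicate 3 of that group the log2 change was 3.25.

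**Figure D3:**
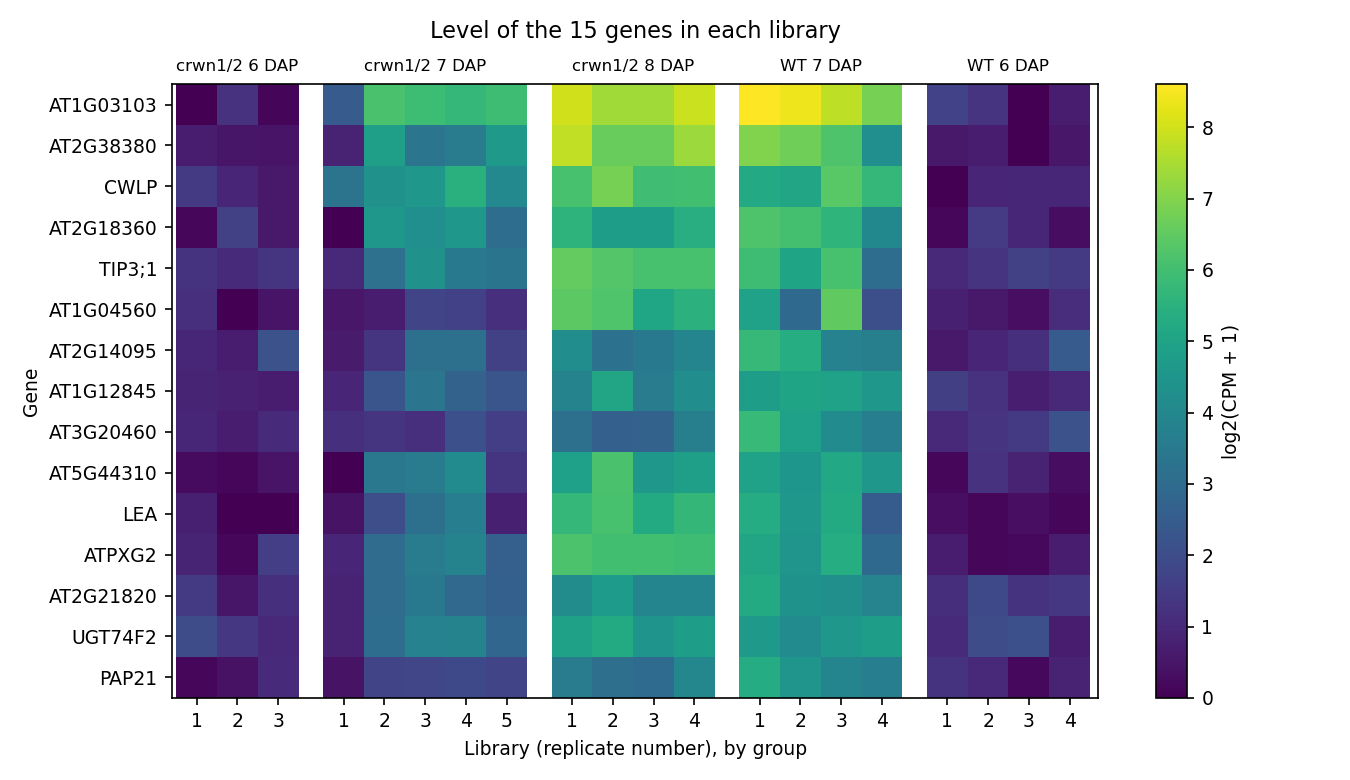
Level of each of the 15 genes (rows) in each library (columns, by group and replicate number), as log2(CPM + 1) in colour. The crwn1/2 columns are dark at 6 DAP and partly lit at 7 DAP, where replicate 1 is dark in most rows (CWLP, at 8.79 CPM, and AT1G03103, at 4.45 CPM, are its brightest), and at 8 DAP they are as bright as WT at 7 DAP for most rows; AT1G04560 is still dark at 7 DAP, with 0.434 to 2.36 CPM.

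The remaining 8 genes carry no name in the annotation used, and no role is given for them. AT1G03103 had the largest log2 change of the 15 between 6 and 7 DAP in crwn1/2. It had 0, 1.35 and 0.0931 CPM in the 3 crwn1/2 libraries of 6 DAP, 4.45, 69.8, 58.4, 52.7 and 59.6 CPM in the 5 of 7 DAP and 252, 166, 164 and 238 CPM in the 4 of 8 DAP. For WT, AT1G03103 had 388, 337, 214 and 111 CPM at 7 DAP and 2.22, 1.44, 0 and 0.562 CPM at 6 DAP. At 7 DAP replicate 1 was far below the other 4, yet above each crwn1/2 library of 6 DAP, and each crwn1/2 library of 7 DAP was below each WT library of that day. The log2 change of AT1G03103 was 6.72 (SE 0.87, edgeR adjusted p = 2.72e-05) at 7 against 6 DAP and 2.06 (SE 0.47, edgeR adjusted p = 0.0136) at 8 against 7 DAP. The level at 6 DAP rests on 14 reads, 13 of them in replicate 2. Without that library 1 read is left, and the ratio of pooled levels at 7 over 6 DAP was 1054 (95% exact interval 189 to 41663, counting error only). AT1G04560 had the smallest part of its change by 7 DAP of the 15 in crwn1/2. It had 1.21, 0 and 0.372 CPM in the 3 crwn1/2 libraries of 6 DAP, 0.434, 0.557, 2.36, 2.13 and 1.24 CPM in the 5 of 7 DAP and 84.9, 73.6, 32.9 and 44.03 CPM in the 4 of 8 DAP. WT levels of AT1G04560 were 29.8, 6.58, 89.4 and 3.15 CPM at 7 DAP and 0.702, 0.480, 0.256 and 1.12 CPM at 6 DAP. The libraries of 6 and 7 DAP of crwn1/2 overlapped, and those of 8 DAP were all far above both; in WT at 7 DAP replicates 1 and 3 were high and replicates 2 and 4 low. AT1G04560 had a fitted log2 shift of 1.38 (SE 1.06, edgeR adjusted p = 0.461) at 7 against 6 DAP, which did not pass, and of 5.43 (SE 0.72, edgeR adjusted p = 0.000325) at 8 against 7 DAP. At 6 DAP it rests on 16 reads, and the first of these was 2.75 without crwn1/2 at 6 DAP replicate 1. Its highest WT library of 7 DAP exceeded the lowest 28.4-fold, the widest spread of the 15 in that group, where the median of the 15 was 4.53-fold, and without WT at 7 DAP replicate 3 its mean fell under the limit of 20 CPM.

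AT3G20460 was the gene furthest under WT at 8 DAP. AT3G20460 had 0.909, 0.625 and 1.02 CPM in the 3 crwn1/2 libraries of 6 DAP, 1.30, 1.53, 1.22, 3.27 and 1.93 CPM in the 5 of 7 DAP and 7.74, 5.13, 5.48 and 11.7 CPM in the 4 of 8 DAP. In WT, AT3G20460 had 54.3, 28.2, 16.2 and 11.5 CPM at 7 DAP and 0.937, 1.44, 1.66 and 3.48 CPM at 6 DAP. The 7 DAP libraries of crwn1/2 stayed close to those of 6 DAP, though each lay above them, and at 8 DAP the highest library only met the lowest WT library of 7 DAP. AT3G20460 had a fitted log2 shift of 1.15 (SE 0.55, edgeR adjusted p = 0.197) at 7 against 6 DAP, which did not pass, and of 2.00 (SE 0.43, edgeR adjusted p = 0.0102) at 8 against 7 DAP. AT2G14095 did not pass the test in either single step. AT2G14095 had 0.909, 0.625 and 3.54 CPM in the 3 crwn1/2 libraries of 6 DAP, 0.543, 1.53, 7.91, 7.76 and 2.20 CPM in the 5 of 7 DAP and 17.3, 8.43, 10.02 and 13.9 CPM in the 4 of 8 DAP. WT levels of this gene were 53.1, 38.97, 13.1 and 11.7 CPM at 7 DAP and 0.468, 0.841, 1.28 and 4.38 CPM at 6 DAP. Replicate 3 of 6 DAP was above 3 of the 5 libraries of 7 DAP, and the lowest library of 8 DAP was just above the highest of 7 DAP. Its log2 change was 1.28 (SE 0.76, edgeR adjusted p = 0.313) at 7 against 6 DAP, 1.61 (SE 0.62, edgeR adjusted p = 0.150) at 8 against 7 DAP and 2.89 (SE 0.80, edgeR adjusted p = 0.00997) at 8 against 6 DAP. The first of these was 2.40 without crwn1/2 at 6 DAP replicate 3 (edgeR adjusted p = 0.139). The last of these was 2.51 without crwn1/2 at 6 DAP replicate 2 (edgeR adjusted p = 0.0551) and 4.01 without replicate 3. AT2G18360 rose early and did not pass the test in the second step. AT2G18360 had 0.101, 2.19 and 0.466 CPM in the 3 crwn1/2 libraries of 6 DAP, 0, 23.3, 18.2, 22.5 and 7.16 CPM in the 5 of 7 DAP and 46.3, 26.1, 26.3 and 40.6 CPM in the 4 of 8 DAP. Its levels in WT were 71.8, 64.1, 47.6 and 15.3 CPM at 7 DAP and 0.117, 1.80, 0.895 and 0.225 CPM at 6 DAP. At 7 DAP replicate 1 of crwn1/2 was at 0, replicate 5 was intermediate, and the other 3 came close to the lowest libraries of 8 DAP. AT2G18360 had a fitted log2 shift of 4.01 (SE 0.93, edgeR adjusted p = 0.00586) at 7 against 6 DAP, of 5.62 without crwn1/2 at 6 DAP replicate 2, and of 1.27 (SE 0.61, edgeR adjusted p = 0.267) at 8 against 7 DAP.

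**Figure D4:**
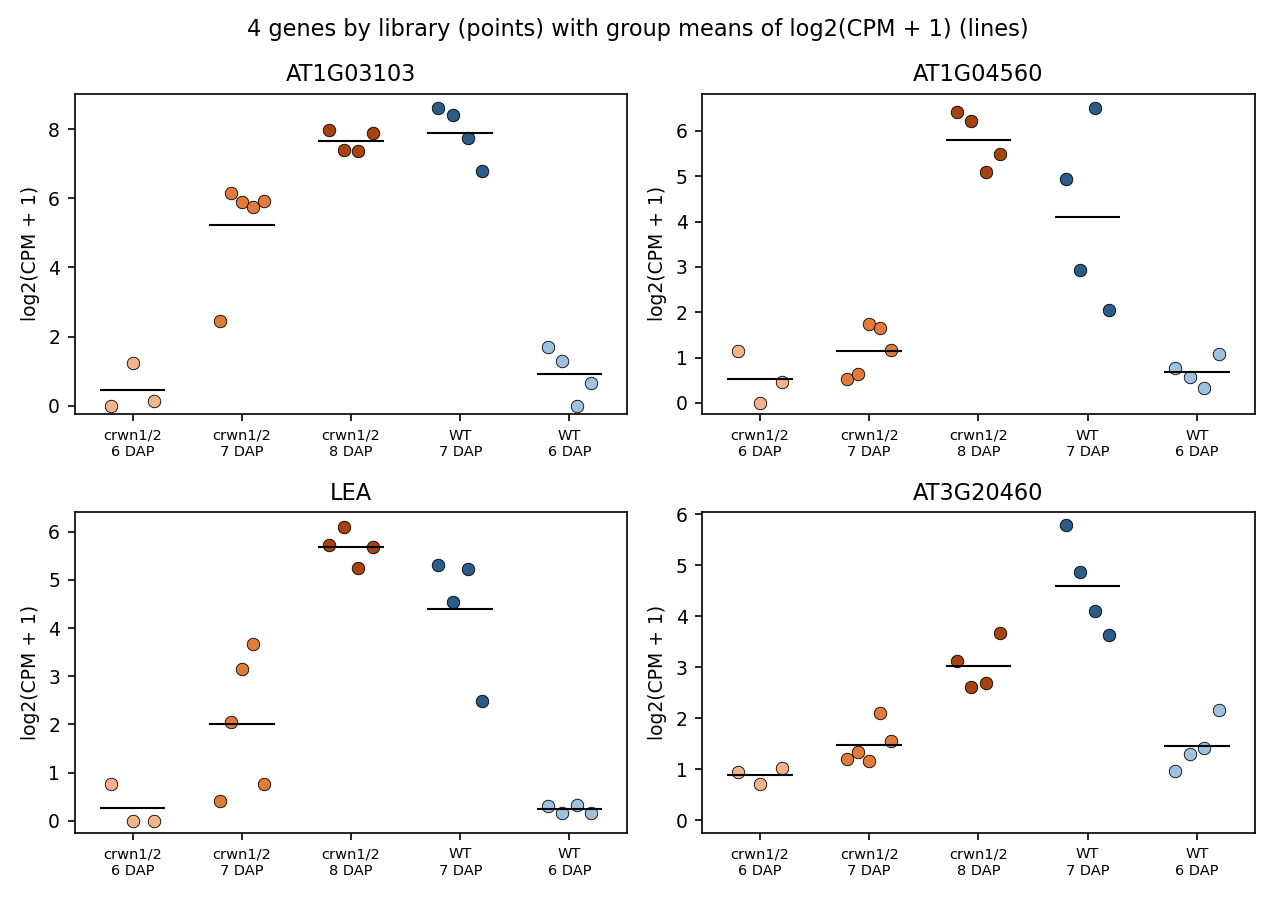
Levels of 4 of the 15 genes as log2(CPM + 1) (vertical axes) in each library (points) by group (horizontal axes); lines are group means on that scale. AT1G03103 is high at 7 DAP in 4 of 5 crwn1/2 libraries, AT1G04560 at 8 DAP, LEA is split at 7 DAP, and AT3G20460 reaches 5.13 to 11.7 CPM at 8 DAP against 11.5 to 54.3 CPM in WT at 7 DAP.

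AT2G38380, AT1G12845 and AT2G21820 rose in both steps. AT2G38380 had 0.606, 0.417 and 0.372 CPM in the 3 crwn1/2 libraries of 6 DAP, 0.760, 27.2, 9.05, 10.9 and 23.4 CPM in the 5 of 7 DAP and 220.3, 97.3, 96.7 and 158 CPM in the 4 of 8 DAP. In WT, AT2G38380 had 124, 102, 71.9 and 18.03 CPM at 7 DAP and 0.468, 0.601, 0 and 0.449 CPM at 6 DAP. At 8 DAP replicates 1 and 4 were above each WT library of 7 DAP and replicates 2 and 3 within their range; at 7 DAP replicate 1 was only just above the libraries of 6 DAP. AT2G38380 had a fitted log2 shift of 4.95 (SE 0.90, edgeR adjusted p = 0.000717) and 3.32 (SE 0.52, edgeR adjusted p = 0.00115) in the first and the second step. For AT1G12845 the range was 0.559 to 0.808 CPM in crwn1/2 at 6 DAP, 0.868 to 9.23 CPM at 7 DAP and 10.95 to 32.6 CPM at 8 DAP, with 22.5 to 31.2 CPM in WT at 7 DAP and 0.640 to 1.99 CPM in WT at 6 DAP. AT1G12845 had a fitted log2 shift of 2.75 (SE 0.58, edgeR adjusted p = 0.00252) and 2.01 (SE 0.41, edgeR adjusted p = 0.00691), without overlap between the days. For AT2G21820 it was 0.417 to 1.72 CPM, 0.760 to 10.1 CPM and 13.9 to 24.8 CPM in crwn1/2 at 6, 7 and 8 DAP, with 13.7 to 36.5 CPM in WT at 7 DAP and 1.17 to 2.76 CPM in WT at 6 DAP. Its libraries of 7 DAP overlapped those of 6 DAP through replicate 1 alone. AT2G21820 had a fitted log2 shift of 2.39 (SE 0.57, edgeR adjusted p = 0.00728) and 1.56 (SE 0.43, edgeR adjusted p = 0.0410); the first call was lost without crwn1/2 at 6 DAP replicate 2 (edgeR adjusted p = 0.0606). The second was lost without any of 9 libraries, namely crwn1/2 at 7 DAP replicates 1, 2, 4 and 5, the 4 crwn1/2 libraries of 8 DAP and WT at 6 DAP replicate 4, with edgeR adjusted p up to 0.105.

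By their fitted log2 changes the genes differed in timing, though no test compared the genes with each other. By 7 DAP, between 20.2% and 76.5% of the log2 change from 6 to 8 DAP had taken place in crwn1/2, with a median of 56.02%. AT1G03103, AT2G18360 and CWLP were at the early end with 76.5%, 75.97% and 71.3%. AT1G04560 was at the late end with 20.2%, next to AT3G20460 with 36.6% and AT2G14095 with 44.3%. Without crwn1/2 at 6 DAP replicate 3 the share of AT2G14095 was 59.8%, over the median of 58.7% in that setting, so its place at the late end rests on that library. AT1G04560 had the lowest share of the 15 without any 1 of the 12 crwn1/2 libraries, at 13.2% to 33.6%, the highest of these without crwn1/2 at 6 DAP replicate 1. On the log2 scale the first step was the larger in 9 genes and the second in 6. Without crwn1/2 at 7 DAP replicate 1 these numbers were 13 and 2, and AT1G04560 and AT3G20460 were the 2 with the larger second step. By mean CPM the second step was the larger in each of the 15 genes. AT1G03103 had 0.482, 49.0 and 205 CPM in crwn1/2 at 6, 7 and 8 DAP. On these days AT2G18360 had 0.918, 14.2 and 34.8 CPM and CWLP 1.01, 21.7 and 75.9 CPM. The shares of the log2 change are fitted values without an error of their own. Neither the ends nor the order of genes between them was tested.

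Set beside WT at 7 DAP, crwn1/2 was lower for all 15 genes at 7 DAP and on either side at 8 DAP. These comparisons use the WT libraries that chose the genes, which were picked for being high there, so they carry no test. At 7 DAP the crwn1/2 means came to 4.17% to 43.1% of the WT means of 7 DAP, with a median of 18.7%, the lowest for AT1G04560 and the highest for CWLP. Without the library that stands apart in each genotype the range was 3.75% to 49.98%, with a median of 19.2%. For 9 genes each crwn1/2 library of 7 DAP was below each WT library of 7 DAP, as for 11% of all features, and 6 overlapped: AT2G38380, CWLP, AT2G18360, TIP3;1, LEA and ATPXG2. Without the library that stands apart in each genotype this was so for 14 genes, all but CWLP, and for 14.1% of all features. None of the 15 lay above in the same way, where 17% of all features did. The libraries left out were picked on the levels of these genes, so the larger count of 14 carries no weight. At 8 DAP 8 genes had a higher mean in crwn1/2 than in WT at 7 DAP, namely AT2G38380, CWLP, TIP3;1, AT1G04560, AT5G44310, LEA, ATPXG2 and UGT74F2, and 7 had a lower one; the same 8 were higher without WT at 7 DAP replicate 4. ATPXG2 reached 258% of the WT 7 DAP mean and LEA 203%, while PAP21 reached 46.9%, AT2G14095 42.5% and AT3G20460 27.3%. Without WT at 7 DAP replicate 4, ATPXG2 was at 207% and LEA at 159%. Of these differences at 8 DAP, that of ATPXG2 alone was without overlap between the libraries. Without WT at 7 DAP replicate 4, ATPXG2 lay above, as did 13.1% of all features, and AT2G18360 and AT3G20460 below, as did 11.4%. Against WT at 6 DAP, each crwn1/2 library of 7 DAP was higher for 5 genes, AT1G03103, AT2G38380, CWLP, LEA and ATPXG2, as for 5.56% of all features, and lower for 0, as for 4.99%. Without crwn1/2 at 7 DAP replicate 1 it was higher for 12 genes, as for 9.97% of all features, and lower for 0, as for 7.89%. The larger count again follows in part from the choice of the library left out. At 6 DAP the libraries of crwn1/2 and WT overlapped for all 15 genes, where 13.3% of all features lay above WT and 10% below without overlap. Since no WT library of 8 DAP was analysed here, genotype and day differ together in the comparison with crwn1/2 at 8 DAP and cannot be told apart.

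**Figure D5:**
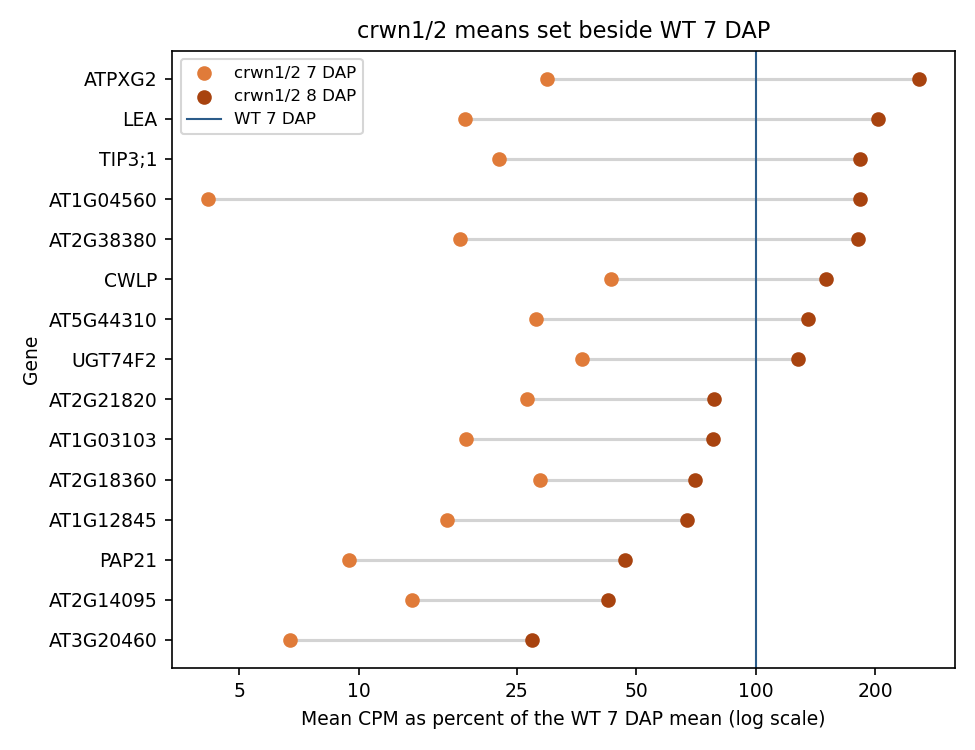
Mean CPM of each gene (vertical axis) in crwn1/2 at 7 DAP and at 8 DAP as a percent of its WT 7 DAP mean (horizontal axis, log scale); the blue line marks WT at 7 DAP and grey lines join the 2 days. At 7 DAP the genes lie between 4.17% and 43.1%, and at 8 DAP between 27.3% and 258%.

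The libraries of 1 group were not high or low alike for all genes. In WT at 7 DAP replicate 1 was the highest for 8 genes and replicate 3 for 5, namely CWLP, TIP3;1, AT1G04560, AT5G44310 and ATPXG2. All 5 were among the 8 genes whose mean was higher in crwn1/2 at 8 DAP than in WT at 7 DAP, as were 2 of the 8 genes highest in replicate 1. In crwn1/2 at 8 DAP replicate 1 was the highest for 7 genes and replicate 2 for 6, among these CWLP, AT5G44310, LEA and UGT74F2. Across the 15 genes the highest library of WT at 7 DAP exceeded the lowest 1.39-fold to 28.4-fold, and that of crwn1/2 at 8 DAP 1.17-fold to 3.04-fold.

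The limits that chose the genes are round numbers, and genes lay close on either side of them. Just inside the limit of 2 CPM in WT at 6 DAP were UGT74F2 with 1.96 CPM and AT3G20460 with 1.88 CPM, and just outside were AT2G15830 with 2.02 CPM and RWP1 with 2.24 CPM. Just inside the limit of 20 CPM in WT at 7 DAP were PAP21 with 21.5 CPM and UGT74F2 with 22.05 CPM, and just outside were RTNLB13 with 19.8 CPM and MYB107 with 17.8 CPM. With 1 of the WT libraries left out in turn, 12 to 19 genes met the limits: 12 without WT at 7 DAP replicate 1 and without WT at 6 DAP replicate 1, and 19 without WT at 7 DAP replicate 4. All 15 passed the filter on low counts, with all libraries, with the crwn1/2 libraries alone and with the WT libraries alone.

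The genes left out by the rule that also met both limits were CRU2, CRU3, SESA5, AT1G03890 and AT1G62225. CRU3, a cruciferin (a seed storage globulin), had means of 0.136, 163 and 1264 CPM in crwn1/2 at 6, 7 and 8 DAP, and 1279.5 CPM in WT at 7 DAP and 0.355 CPM in WT at 6 DAP. SESA5, a seed storage albumin, had 0.330, 18.6 and 166 CPM in crwn1/2 at 6, 7 and 8 DAP, and 93.7 CPM in WT at 7 DAP and 0.392 CPM in WT at 6 DAP. AT1G62225, whose identifier starts with AT1G622, had 0.225, 171 and 589.7 CPM in crwn1/2 at 6, 7 and 8 DAP, and 1224 CPM in WT at 7 DAP and 0.387 CPM in WT at 6 DAP. By means all 5 stood below WT at 7 DAP in crwn1/2 on that day. They met the same limits on WT values, so this carries no test.

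Genes that regulate maturation rose in part on the same days. The gene lists used here were drawn up with earlier results of these data known, so their counts are a description. Of all features tested, 6.57% rose and 4.64% fell at 7 against 6 DAP. At 8 against 7 DAP 2.22% rose and 1.73% fell. Of 15 seed maturation transcription factors, 6 rose at 7 against 6 DAP in crwn1/2, namely L1L, FUS3, ABI3, EEL, BZIP67 and MYB118, with a list median log2 change of 0.32 beside -0.01 over all features (edgeR). None fell by edgeR, while DESeq2 called 1 lower, as did an unadjusted p under 0.05. FUS3, a B3-type regulator of maturation, had means of 215, 608 and 1118 CPM in crwn1/2 at 6, 7 and 8 DAP, with log2 changes of 1.54 (SE 0.24, edgeR adjusted p = 0.000119) and 0.87 (SE 0.20, edgeR adjusted p = 0.0151) in the 2 steps. BZIP67, which is known to act with L1L on storage genes, had 29.4, 108 and 233 CPM on these days and a fitted log2 shift of 1.91 (SE 0.23, edgeR adjusted p = 9.28e-06) and 1.11 (SE 0.19, edgeR adjusted p = 0.00186). LEC1 moved the other way in the second step, with 169, 140.3 and 91.9 CPM and a change of -0.62 (SE 0.16, edgeR adjusted p = 0.0282) at 8 against 7 DAP. At 8 against 7 DAP 3 of the 15 factors rose and 2 fell, LEC1 and MYB115, with a list median of 0.15. Of 16 LEA genes 11 could be tested, AT5G44310 among them; 4 rose at 7 against 6 DAP and 8 at 8 against 7 DAP, with list medians of 1.21 and 2.14. By edgeR 0 of them fell in either step; DESeq2 called 1 and 0 lower, and 2 and 0 were lower at an unadjusted p under 0.05. LEA7 had 3.81, 19.98 and 79.9 CPM on the 3 days and RAB18, a dehydrin known for its response to abscisic acid, had 0.980, 0.105 and 2.64 CPM. LEA7 had a fitted log2 shift of 2.43 (SE 0.37, edgeR adjusted p = 0.000122) and 1.99 (SE 0.29, edgeR adjusted p = 0.000551). RAB18 had one of 4.44 (SE 0.92, edgeR adjusted p = 0.00754) in the second step. That shift is measured from 0.105 CPM at 7 DAP, which lay under the 0.980 CPM of RAB18 at 6 DAP. All 7 other reserve and oil body genes rose at 7 against 6 DAP and 5 at 8 against 7 DAP, with list medians of 3.29 and 2.05; 0 were lower by edgeR, by DESeq2 or at an unadjusted p under 0.05. CLO1, a caleosin of oil bodies, had 0.395, 46.2 and 284 CPM in crwn1/2 at 6, 7 and 8 DAP and a fitted log2 shift of 6.86 (SE 0.73, edgeR adjusted p = 3.79e-06) and 2.61 (SE 0.39, edgeR adjusted p = 0.000726). PAP85, a vicilin-like storage protein gene, had 0.720, 55.3 and 294 CPM and a fitted log2 shift of 6.23 (SE 0.87, edgeR adjusted p = 5.17e-05) and 2.41 (SE 0.50, edgeR adjusted p = 0.00801).

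Lists of endosperm development and of sugar supply were counted in the same way, beside the same shares of all features. Of 8 endosperm development genes tested, 3 rose and 1 fell at 7 against 6 DAP, with a list median of -0.02, and 0 rose or fell at 8 against 7 DAP (edgeR, and DESeq2 too; 1 was higher at an unadjusted p under 0.05). EPR1, an extensin-like gene of the endosperm next to the embryo, had 53.4, 513 and 1111 CPM in crwn1/2 at 6, 7 and 8 DAP and a fitted log2 shift of 3.31 (SE 0.45, edgeR adjusted p = 3.83e-05) in the first step. Of 7 sugar supply genes, 1 rose and 1 fell in the first step, where 6.57% of all features rose and 4.64% fell. In the second step 2 rose and 1 fell, where 2.22% of all features rose and 1.73% fell. SWEET11, a sucrose exporter, had 84.6, 298 and 518 CPM on these days and a fitted log2 shift of 1.86 (SE 0.24, edgeR adjusted p = 2.94e-05) and 0.79 (SE 0.21, edgeR adjusted p = 0.0294).

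The 15 genes were spread over 4 chromosomes, with 4 on chromosome 1, 6 on chromosome 2, 3 on chromosome 3 and 2 on chromosome 5. Of the 30 annotated genes next to them with counts, 0 met both limits in WT, and of 24 that could be tested 2 rose and 2 fell at 7 against 6 DAP in crwn1/2, where 6.57% of all features rose and 4.64% fell (edgeR). At 8 against 7 DAP 2 of the 24 rose and 0 fell by edgeR, where 2.22% and 1.73% of all features did; DESeq2 called 1 lower, and 3 were lower at an unadjusted p under 0.05. At 8 against 6 DAP 3 rose and 4 fell, where 12.1% and 12.8% did. The 2 that rose in each single step were AT1G03106, next to AT1G03103, and AT3G22121, a long noncoding RNA gene that overlaps CWLP. At 8 against 6 DAP these 2 rose, as did AT2G21500, beside LEA (log2 change 1.21, SE 0.41, edgeR adjusted p = 0.0339). AT1G03106 had 0.965, 15.4 and 63.5 CPM in crwn1/2 at 6, 7 and 8 DAP, and 40.3 CPM in WT at 7 DAP and 2.96 CPM in WT at 6 DAP, and a fitted log2 shift of 4.06 (SE 0.72, edgeR adjusted p = 0.000514) and 2.04 (SE 0.47, edgeR adjusted p = 0.0140) in the 2 steps. AT3G22121 had 0.169, 4.08 and 12.4 CPM in crwn1/2 at 6, 7 and 8 DAP, and 5.32 CPM in WT at 7 DAP and 0.181 CPM in WT at 6 DAP, and a fitted log2 shift of 4.56 (SE 0.69, edgeR adjusted p = 0.000112) and 1.60 (SE 0.43, edgeR adjusted p = 0.0355). The strand setting of the counting is not given in the sources used here, and without strand the reads of the overlapping genes CWLP and AT3G22121 cannot be told apart. The same holds for TIP3;1 and AT1G73200, which overlaps it and had 20.7, 17.9 and 17.05 CPM in crwn1/2 at 6, 7 and 8 DAP, and 15.5 CPM in WT at 7 DAP and 17.8 CPM in WT at 6 DAP. GRP5 beside AT3G20460 and IAMT1 beside ATPXG2 fell in the first step. GRP5 had a fitted log2 shift of -2.27 (SE 0.47, edgeR adjusted p = 0.00209) and IAMT1 one of -1.15 (SE 0.27, edgeR adjusted p = 0.00631). At 8 against 6 DAP GRP5 and IAMT1 fell too, as did HB24, beside AT2G18360, and AT1G12830, beside AT1G12845. UGT74F2, AT2G38380 and PAP21 each have a neighbour that may be a similar copy sharing reads: UGT74F1 had 1.38, 2.10 and 2.10 CPM in crwn1/2 at 6, 7 and 8 DAP, and 2.53 CPM in WT at 7 DAP and 2.13 CPM in WT at 6 DAP. AT2G38390, beside AT2G38380, had 0.163, 0.240 and 0.139 CPM in crwn1/2 at 6, 7 and 8 DAP, and 0.440 CPM in WT at 7 DAP and 0.264 CPM in WT at 6 DAP. PAP22, beside PAP21, had 0.200, 0.465 and 0.597 CPM in crwn1/2 at 6, 7 and 8 DAP, and 1.13 CPM in WT at 7 DAP and 0.502 CPM in WT at 6 DAP.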

How the data were processed

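mRNA was measured in 20 libraries of sorted endosperm nuclei. The deposited values are the authors' read counts per annotated gene or transposable element; every file held whole numbers of at least 0, and the closing HTSeq lines, which are not features, do not count in totals. Reads outside features came to 4.05% to 5.92%. Trim Galore 0.6.7, STAR 2.7.1a and HTSeq stand among the tools, and TAIR10 as the build, per the submitters' processing notes; the strand setting is not given in the sources used here. Symbols and neighbours came from the RefSeq table of TAIR10.1, where 31912 of 32399 AT1G to AT5G identifiers had an entry.

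CPM is the count over the library total, times 1000000. Changes between days within crwn1/2 were tested with edgeR 4.0.16 (R 4.3.3, quasi-likelihood F-test, TMM) on 24696 of 63867 features (count minimum 10, total 15). All 20 libraries entered the same model, where each of the 5 groups had its own coefficient. P-values were two-sided and adjusted by Benjamini-Hochberg over all features, with 0.05 as the threshold; an SE is the log2 change over the root of its F. The test recovered seeded changes in simulated data. Alternatives were RLE scaling, DESeq2 1.42.0, no filter, crwn1/2 libraries alone, a replicate block, a covariate, each library left out in turn, and both libraries that stand apart left out, the last chosen after seeing the data. Comparisons with WT carry no test, since WT values chose the genes.

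Named genes were all 15 members, the genes nearest the limits, and members of 7 lists picked for their textbook role. The members and lists were chosen with earlier results of these data known. The 12 lists of H3K27me3 peaks, deposited with the authors' read counts per peak, were used only to count peaks, 3961 to 5671 per list; their coordinates were not joined to genes, because the annotation used here is of TAIR10.1. Their 12 columns of control library counts belong to no labelled sample and were not used. The planned search for motifs was not run, as no promoter sequences were used here.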

Additional observations from a re-analysis of the deposited data

Results flagged for a closer look

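Of 64 sets of library values examined (each of the 15 genes, and their sum, in each group of 4 or 5 libraries), 5 held a library far from the others of its group, measured as its gap to the nearest library over the range of the group. Chance gives about 1 in 20 such sets. In crwn1/2 at 7 DAP replicate 1 was far below the others for AT1G03103, at 4.45 CPM with a gap of 0.737 of the range, and for PAP21, at 0.326 CPM with a gap of 0.817. In crwn1/2 at 8 DAP replicate 2 was far above the others for CWLP, at 112 CPM with a gap of 0.883, and for AT5G44310, at 69.9 CPM with a gap of 0.898. In WT at 6 DAP replicate 1 held 0 CPM of CWLP, with a gap of 0.935.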

How the results depend on the processing

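None of the results reversed under the alternatives tried. With 1 library left out in turn, 8 to 12 of the 15 genes rose at 7 against 6 DAP in crwn1/2, 10 to 13 at 8 against 7 DAP and 14 to 15 at 8 against 6 DAP, and 1 to 2 had a mean of at least 20 CPM in crwn1/2 at 7 DAP. When the fit held each library's share of unassigned reads as a covariate, 7 rose at 8 against 7 DAP; the cause was not tested, and 117 of all features were then called higher, beside 548 without the covariate. Without both libraries that stand apart, 12, 13 and 15 rose. For that setting, and for single libraries other than crwn1/2 at 7 DAP replicate 1, the share of all features is not given here. A change in these counts thus cannot be told apart from a general change in calls. Of 1215 changes of a single gene under an alternative, 1159 kept their side of the threshold, 55 lost the call and 1 gained it, AT2G14095 at 8 against 7 DAP without the filter (edgeR adjusted p = 0.0387). DESeq2 lost the calls of AT1G03103 and AT5G44310 at 8 against 7 DAP (adjusted p = 0.114 and 0.0910). Same-numbered crwn1/2 libraries did not deviate together (correlations -0.20 to 0.12 over 10 pairs, 1 over 0.1). With so few libraries per group this cannot settle whether the numbers pair them. A replicate block gave 10 genes at 7 against 6 DAP and 10 at 8 against 7 DAP, and 15 at 8 against 6 DAP. With the block 4.71%, 1.66% and 10.7% of all features rose in these contrasts. At 6 DAP the genes rest on few reads, which limits how well their folds are known.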
